A study of Homo sapiens with 6 samples.

Results

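Genes of the amino acid response driven by ATF4, together with the genes of cytosolic aminoacyl-tRNA synthetases, were compared between a pair of subpopulations of the established line DLD-1, from a human colorectal adenocarcinoma. The list was drawn up by function and held 47 genes: 5 enzymes of serine and one-carbon metabolism, 5 other enzymes of amino acid metabolism, 7 amino acid transporters, 11 regulators, 2 further targets and 17 synthetases. A gene was measured where a transcript cluster (the probes that the platform treats as 1 transcribed unit) carried its symbol and no other, and 45 members of 22376 genes measured in all met this. ATF5 shares its cluster with another gene, and GPT2 is not analysed here. RNA of the groups Δα-Cat (3 arrays) and α-Cat (3 arrays) came from DLD-1 subclones kept for 96 h, without treatment, in a 3D gel of type I collagen at 1 mg/ml. The labels do not spell out the names, do not say how α-Cat was altered in the Δα-Cat cells, and do not say whether a group is 1 clone or whether the cultures behind its arrays were separate. The p-values therefore cover only array-to-array spread, which may be technical. In bulk RNA, fewer cells with a transcript and less of it per cell cannot be told apart. Values are log2 levels, and a change is Δα-Cat minus α-Cat on the log2 scale with the standard error (SE) of the fit.

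When amino acids run short or unfolded protein builds up, kinases phosphorylate the translation factor eIF2α, which lowers translation in general but raises that of the ATF4 mRNA. ATF4 then pairs with C/EBP proteins on DNA elements near genes for amino acid synthesis, amino acid uptake and tRNA charging, and also turns on DDIT3 (CHOP), TRIB3 and other regulators that adjust or end the response. Aminoacyl-tRNA synthetases join each amino acid to its tRNA, and many cytosolic ones are known ATF4 targets.

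The element that ATF4 and C/EBP proteins bind is often written as TGATGNAA, and it is shown here because several members are known for it. RefSeq windows of GRCh38.p14, from 250 bases before to 50 bases after a start site, were searched for these letters on both strands, as the only motif. A window was given for 38 of the 47 members, and 15 of these (39.5%) held a match in at least 1 window. Among all 27305 genes with a window the share was 4.46%, and among single windows 3.62%. The members were listed by function, many of them for a known link to ATF4, so this share describes the list. The matches are printed in the direction of the motif, ordered by the p of the member, with up to 6 bases on each side and the motif in capitals:
IARS1: cggaggTGATGCAAcgcgct
CARS1: agaatcTGATGCAAccgccg
ASNS: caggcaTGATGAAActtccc
CHAC1: caggagTGATGCAAcggcag
CEBPG: ggcgtcTGATGCAAcctgcc
NARS1: gctctcTGATGCAAcgccgg
SLC7A1: cactgcTGATGAAAcctggc
ATF3: tcaggaTGATGGAAggctgt
MARS1: cctcgcTGATGCAAccggaa
GARS1: ggagcaTGATGAAAtcgccg
SLC3A2: ggagcTGATGTAAggagtc
TARS1: accagcTGATGCAAtcgaaa
SLC1A5: agtggcTGATGCAAgctgtc
SLC1A4: tggagaTGATGCAAacggga
AARS1: cttggcTGATGCAActgcga
TGATGCAA was the form in 10 of the 15 matches, and TGATGAAA in 3. The match of ASNS began 68 bases before the start site (position -68, counted in the direction of the gene), those of IARS1 and CARS1 at -13 and -2, and that of CHAC1 at -209. Of the 14 synthetase members with a window, 7 held a match.

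The 6 windows printed below in the direction of the gene are the first 6, in order of p, among members that passed the test or that hold a match and were chosen by rule for values on every array. SLC3A2 comes later in that order, and its window is not printed. They lie at chr9:92293648-92293947 (minus strand) for IARS1, chr1:119711684-119711983 (plus strand) for PHGDH, chr11:3057374-3057673 (minus strand) for CARS1, chr7:97872359-97872658 (minus strand) for ASNS, chr15:40953221-40953520 (plus strand) for CHAC1 and chr13:29595639-29595938 (minus strand) for SLC7A1, all on GRCh38.p14. Capitals mark the match on either strand, and the window of PHGDH has none:
IARS1: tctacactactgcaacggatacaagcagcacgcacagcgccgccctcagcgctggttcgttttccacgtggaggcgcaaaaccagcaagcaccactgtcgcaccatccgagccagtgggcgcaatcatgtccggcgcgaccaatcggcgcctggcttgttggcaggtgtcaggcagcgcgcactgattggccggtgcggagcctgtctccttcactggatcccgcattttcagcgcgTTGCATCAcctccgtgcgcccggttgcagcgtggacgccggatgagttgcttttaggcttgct
PHGDH: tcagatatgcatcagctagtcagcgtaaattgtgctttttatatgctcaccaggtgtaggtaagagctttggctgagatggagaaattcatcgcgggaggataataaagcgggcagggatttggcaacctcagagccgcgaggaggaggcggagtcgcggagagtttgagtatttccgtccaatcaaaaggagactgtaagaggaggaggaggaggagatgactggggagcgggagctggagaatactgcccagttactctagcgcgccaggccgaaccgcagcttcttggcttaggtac
CARS1: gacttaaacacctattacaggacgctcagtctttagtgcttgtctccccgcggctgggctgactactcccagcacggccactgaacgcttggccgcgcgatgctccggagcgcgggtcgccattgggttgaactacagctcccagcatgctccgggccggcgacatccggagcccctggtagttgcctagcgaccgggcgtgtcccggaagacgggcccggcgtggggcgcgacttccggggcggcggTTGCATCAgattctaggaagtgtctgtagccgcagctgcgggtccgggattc
ASNS: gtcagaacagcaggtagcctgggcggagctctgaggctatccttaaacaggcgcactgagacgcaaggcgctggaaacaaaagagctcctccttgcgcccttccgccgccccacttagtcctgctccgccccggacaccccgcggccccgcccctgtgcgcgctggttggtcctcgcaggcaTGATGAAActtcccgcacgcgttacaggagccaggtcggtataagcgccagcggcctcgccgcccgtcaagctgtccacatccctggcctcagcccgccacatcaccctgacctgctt
CHAC1: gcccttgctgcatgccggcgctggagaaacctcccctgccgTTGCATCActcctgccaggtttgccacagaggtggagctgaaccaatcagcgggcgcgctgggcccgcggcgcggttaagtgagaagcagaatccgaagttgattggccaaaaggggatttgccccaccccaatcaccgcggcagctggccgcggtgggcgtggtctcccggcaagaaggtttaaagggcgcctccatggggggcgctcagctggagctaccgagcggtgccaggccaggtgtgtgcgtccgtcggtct
SLC7A1: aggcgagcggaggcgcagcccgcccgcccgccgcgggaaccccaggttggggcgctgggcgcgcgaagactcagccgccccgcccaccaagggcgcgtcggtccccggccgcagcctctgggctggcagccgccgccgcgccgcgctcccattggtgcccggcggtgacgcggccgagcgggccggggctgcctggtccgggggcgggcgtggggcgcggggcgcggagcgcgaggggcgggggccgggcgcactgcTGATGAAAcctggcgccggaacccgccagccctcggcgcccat
The measured changes of the members are set against these windows after the values.

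Over the 45 measured members, 2 rose in Δα-Cat and 0 fell: IARS1 and PHGDH (limma, Benjamini-Hochberg adjusted p under 0.05 over 65526 clusters). Among all clusters 0.211% rose and 0.131% fell by this rule, and among genes 0.371% and 0.255%. At an unadjusted p under 0.05, 18 members were higher and 2 lower, against 6.96% and 6.16% of all genes. The change was positive in 35 members (77.8%; 49.8% of all genes), and the median change was 0.13 over the members and -0.00045 over all genes. Every Δα-Cat array lay above every α-Cat array in 21 members, against 11.3% of genes, and below in 2, against 10.0% of genes. The mean level on an array lay between 7.78 and 8.03 over the members and between 5.32 and 5.34 over all genes. Shares over genes of like level were not taken, here or below. When only the single-symbol clusters were tested, 6 members rose (IARS1, PHGDH, WARS1, PSAT1, CARS1 and SARS1) and ALDH18A1 fell, with 1.63% and 1.29% of those clusters called higher and lower. Among clusters above the level of olfactory receptors, 6 members rose, against 1.04% of those clusters, and 0 fell, against 0.725%. With the replicate number as a block, 0 members were called, with 0.150% and 0.0885% of all clusters called.

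**Figure D1:**
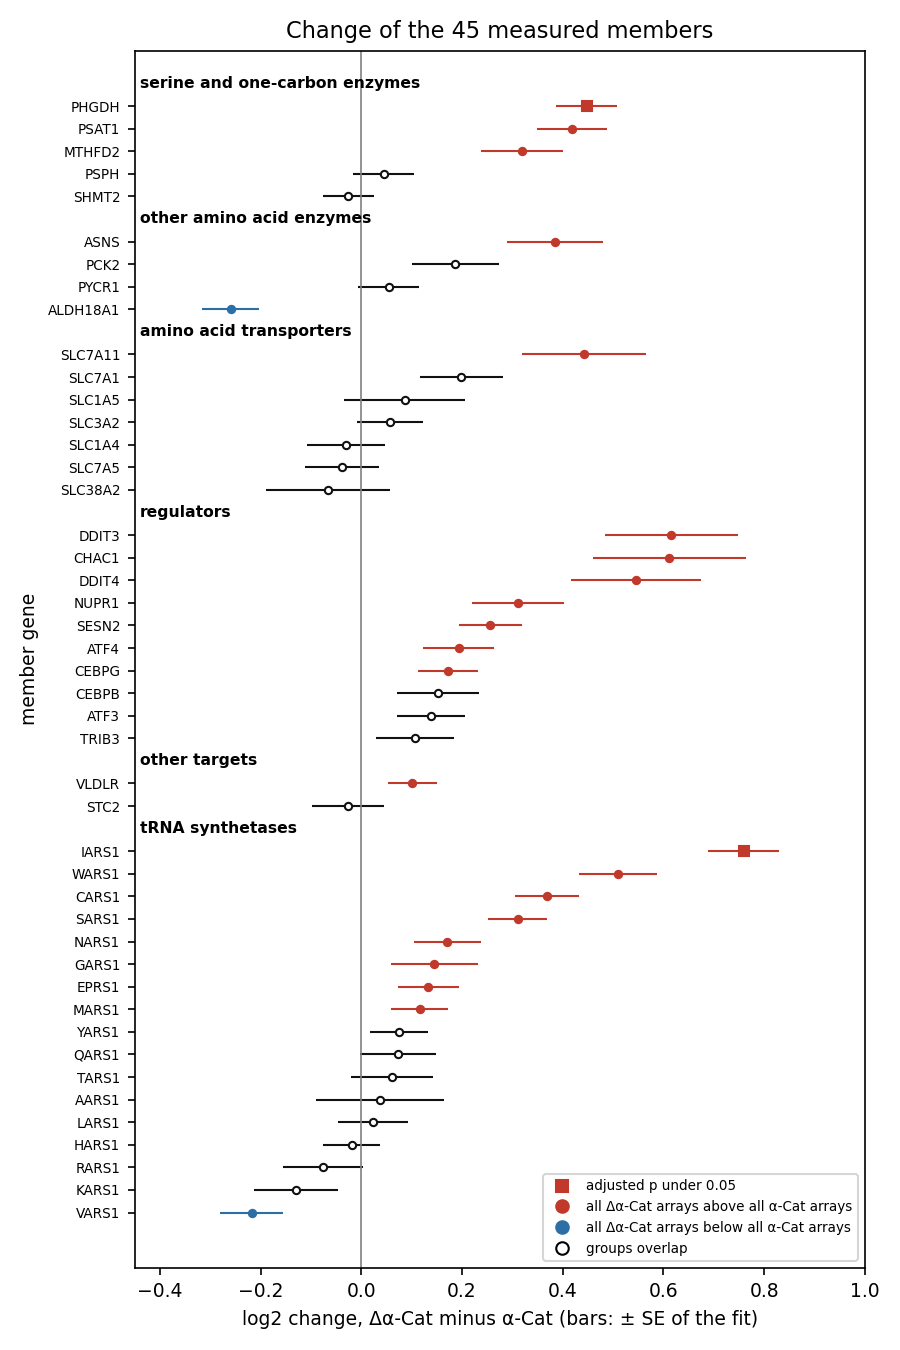
Log2 change, Δα-Cat minus α-Cat, of the 45 measured members by role, with bars of ± the SE of the fit and 3 arrays in each group. Squares mark IARS1 and PHGDH, the only members with an adjusted p under 0.05. Filled red points mark the 21 members whose Δα-Cat arrays all lay above the α-Cat arrays, filled blue points the 2 that all lay below, and open points those that overlapped.

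Serine synthesis branches from glycolysis at PHGDH and runs through PSAT1 and PSPH. PHGDH, its first enzyme, rose 1.36-fold in Δα-Cat. It read 7.99, 8.01 and 8.13 in Δα-Cat, against 7.55, 7.62 and 7.61 in α-Cat. The groups did not overlap, and the change was 0.45 (SE 0.06, adjusted p = 0.0474). With the replicate block the adjusted p was 0.084, and without any 1 array it lay between 0.0934 and 0.21, so the call was lost in each of these 7 fits. PSAT1, the aminotransferase of the next step, had 9.78, 9.82 and 9.92 in Δα-Cat, against 9.51, 9.33 and 9.42 in α-Cat. Its groups did not overlap either, but its change of 0.42 (SE 0.07, adjusted p = 0.0843) did not pass over all clusters. PSPH, the phosphatase of the last step, overlapped between groups with a change of 0.04 (SE 0.06). The levels were 7.31, 7.40 and 7.47 in Δα-Cat and 7.38, 7.33 and 7.34 in α-Cat. The differences between the changes of these 3 enzymes were not tested.

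Serine feeds the mitochondrial folate route through SHMT2 and MTHFD2. MTHFD2, which oxidises methylene-tetrahydrofolate, read 7.41, 7.57 and 7.64 in Δα-Cat, against 7.21, 7.13 and 7.31 in α-Cat, with a change of 0.32 (SE 0.08, adjusted p = 0.233). SHMT2, which splits serine into glycine and a folate-bound carbon, read 8.87, 8.83 and 8.83 in Δα-Cat and 8.90, 8.86 and 8.85 in α-Cat, with a change of -0.03 (SE 0.05). MTHFD2 thus separated the groups and SHMT2 did not. Outside the members, 12 of 16 listed genes of serine, glycine and folate metabolism were measured. Of these 1 rose and 0 fell, against 0.371% and 0.255% of all genes. ALDH1L1, a cytosolic formyl-tetrahydrofolate dehydrogenase, read 5.91, 5.97 and 5.95 in Δα-Cat, against 5.49, 5.50 and 5.47 in α-Cat, and rose by 0.46 (SE 0.05, adjusted p = 0.026). Blocking on the number gave it an adjusted p of 0.0729. MTHFD1, the cytosolic folate enzyme, differed by -0.46 (SE 0.09, adjusted p = 0.123) without overlap. SHMT1, the cytosolic form of SHMT2, had -0.03 (SE 0.05), and the median over these 12 was -0.04. Both group means of MTHFD2L, ALDH1L2 and GLDC, which are among the 12, lay under the level of olfactory receptors given with DDIT3, so a change in them could not be read.

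Among the other enzymes, ASNS and ALDH18A1 lay on opposite sides. ASNS, which makes asparagine and is a classical ATF4 target, read 7.44, 7.56 and 7.75 in Δα-Cat, against 7.13, 7.14 and 7.32 in α-Cat, with a change of 0.38 (SE 0.10, adjusted p = 0.218). ALDH18A1, the first enzyme of proline synthesis from glutamate, read 8.26, 8.32 and 8.19 in Δα-Cat, against 8.53, 8.52 and 8.50 in α-Cat, with a change of -0.26 (SE 0.06, adjusted p = 0.154). Neither pair of groups overlapped, and neither gene passed over all clusters. PYCR1, which completes proline synthesis, had a change of 0.05 (SE 0.06) with overlapping groups. PCK2, the mitochondrial phosphoenolpyruvate carboxykinase, read 6.87, 7.06 and 7.16 in Δα-Cat, against 6.75, 6.90 and 6.88 in α-Cat, which overlapped (change 0.19, SE 0.09).

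**Figure D2:**
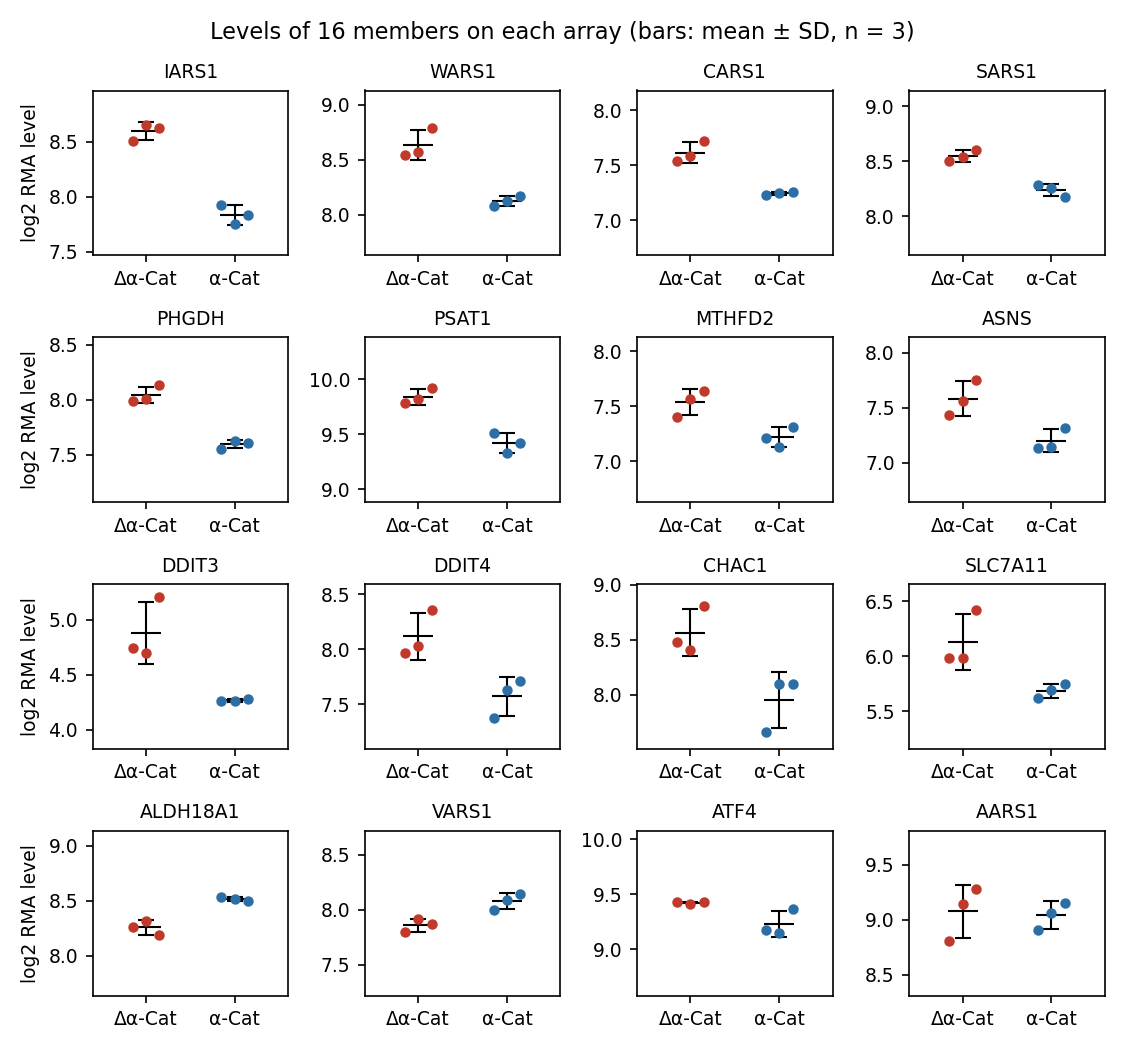
Log2 RMA level of 16 members on each array, with Δα-Cat (red) left of α-Cat (blue) and black bars for the mean ± SD (n = 3 each). Every panel has the same span around the gene's own mean. All Δα-Cat arrays lie above the α-Cat arrays for IARS1, WARS1, CARS1, SARS1, PHGDH, PSAT1, MTHFD2, ASNS, DDIT3, DDIT4, CHAC1, SLC7A11 and ATF4. All lie below for ALDH18A1 and VARS1, and the groups overlap for AARS1.

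Of the 7 amino acid transporters 0 passed over all clusters in limma. At an unadjusted p under 0.05, 2 were higher and 0 lower, against 6.96% and 6.16% of all genes. SLC7A11, the cystine importer of system xc-, read 5.98, 5.98 and 6.42 in Δα-Cat, against 5.62, 5.69 and 5.75 in α-Cat. It was the only transporter whose groups did not overlap, and its change was 0.44 (SE 0.12, adjusted p = 0.274), or 0.30 without Δα-Cat replicate 3. SLC7A1, an importer of cationic amino acids, read 7.62, 7.65 and 7.78 in Δα-Cat, against 7.40, 7.42 and 7.64 in α-Cat, with a change of 0.20 (SE 0.08). The highest α-Cat array of SLC7A1 lay above the lowest Δα-Cat array, while its same-numbered differences were 0.22, 0.23 and 0.14. SLC3A2, the shared heavy chain of SLC7A11 and SLC7A5, had 8.91, 8.82 and 8.92 in Δα-Cat, against 8.80, 8.93 and 8.76 in α-Cat (change 0.06, SE 0.07). SLC7A5, the light chain that carries leucine, had a change of -0.04 (SE 0.07), SLC1A4 of -0.03 (SE 0.08) and SLC1A5, a glutamine carrier, of 0.09 (SE 0.12). SLC38A2, a sodium-coupled carrier of neutral amino acids, read 10.30, 10.10 and 9.81 in Δα-Cat and 10.22, 10.05 and 10.14 in α-Cat (change -0.07, SE 0.12). In these genes other than SLC7A11 the groups overlapped.

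All 10 measured regulators had a positive change, with a median of 0.22, and 7 separated the groups, but 0 passed over all clusters in limma (7 higher and 0 lower at an unadjusted p under 0.05). Of all genes 49.8% had a positive change, 11.3% separated the groups with Δα-Cat higher, and 6.96% were higher at an unadjusted p under 0.05. ATF4 itself read 9.42, 9.41 and 9.43 in Δα-Cat, against 9.18, 9.15 and 9.37 in α-Cat. Its change was 0.19 (SE 0.07, adjusted p = 0.43), and the groups did not overlap. ATF4 is known to be regulated largely in translation, which arrays of RNA do not measure. DDIT3, which encodes the stress factor CHOP, read 4.75, 4.70 and 5.21 in Δα-Cat, against 4.27, 4.26 and 4.28 in α-Cat, with a change of 0.62 (SE 0.13, adjusted p = 0.149). The α-Cat mean of DDIT3 lay under 4.58, a level that 95% of the clusters of olfactory receptors (genes mostly silent outside the nose) do not reach, so its level there was not shown to exceed background. CHAC1, a glutathione-degrading enzyme induced by ATF4, read 8.48, 8.41 and 8.81 in Δα-Cat, against 7.66, 8.10 and 8.10 in α-Cat, with a change of 0.61 (SE 0.15, adjusted p = 0.222). DDIT4, an inhibitor of mTORC1, read 7.96, 8.03 and 8.36 in Δα-Cat, against 7.38, 7.63 and 7.71 in α-Cat, with a change of 0.55 (SE 0.13, adjusted p = 0.197). For DDIT3, CHAC1 and DDIT4 the groups were apart, and Δα-Cat replicate 3 was the highest array.

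SESN2, a leucine-sensing inhibitor of mTORC1, read 7.26, 7.39 and 7.34 in Δα-Cat, against 6.99, 7.11 and 7.11 in α-Cat, with a change of 0.26 (SE 0.06, adjusted p = 0.216). NUPR1, a stress-induced chromatin protein, had a change of 0.31 (SE 0.09), and CEBPG, a dimer partner of ATF4, of 0.17 (SE 0.06), both without overlap. TRIB3, a pseudokinase that restrains ATF4, read 8.54, 8.53 and 8.57 in Δα-Cat, against 8.29, 8.57 and 8.46 in α-Cat (change 0.11, SE 0.08). The groups overlapped for TRIB3, as they did for ATF3 (change 0.14, SE 0.07) and CEBPB (change 0.15, SE 0.08), which are transcription factors of the same family of basic leucine zipper proteins. Of the 2 further targets, the lipoprotein receptor VLDLR read 4.63, 4.60 and 4.63 in Δα-Cat, against 4.50, 4.54 and 4.52 in α-Cat (change 0.10, SE 0.05). Its α-Cat mean also lay below 4.58. The secreted glycoprotein STC2 read 4.76, 4.53 and 4.64 in Δα-Cat and 4.64, 4.65 and 4.71 in α-Cat, which overlapped (change -0.03, SE 0.07). Its means of 4.64 in Δα-Cat and 4.67 in α-Cat lay just above 4.58, with Δα-Cat replicate 2 below.

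IARS1, the cytosolic isoleucyl-tRNA synthetase, had the largest measured change of the 45 members and rose 1.69-fold in Δα-Cat. DDIT3, whose α-Cat level was not shown to exceed background, may differ by more than was measured. IARS1 read 8.51, 8.66 and 8.63 in Δα-Cat, against 7.93, 7.75 and 7.83 in α-Cat, with means of 8.60 ± 0.08 and 7.84 ± 0.09 (SD, n = 3 each). The groups were far apart against the spread within each, with a change of 0.76 (SE 0.07, adjusted p = 0.0157), which ranked 70 among the increases of 22376 genes. The call was just missed with the replicate block (adjusted p = 0.0502). It held without Δα-Cat replicate 1 (adjusted p = 0.0344) and was lost without each of the other 5 arrays: the adjusted p was 0.0976 and 0.0839 without numbers 2 and 3 of Δα-Cat, and 0.0611, 0.0632 and 0.0926 without numbers 1, 2 and 3 of α-Cat. In those fits the change of IARS1 lay between 0.72 and 0.81.

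The other 16 synthetases did not pass over all clusters, and the changes of the 17 ran from -0.22 to 0.76 with a median of 0.07. WARS1, for tryptophan, which is also known as an interferon-induced gene, read 8.55, 8.57 and 8.79 in Δα-Cat, against 8.08, 8.13 and 8.17 in α-Cat, with a change of 0.51 (SE 0.08, adjusted p = 0.0659). CARS1, for cysteine, read 7.54, 7.59 and 7.72 in Δα-Cat, against 7.23, 7.25 and 7.26 in α-Cat, with a change of 0.37 (SE 0.06, adjusted p = 0.0898). SARS1, for serine, read 8.50, 8.54 and 8.61 in Δα-Cat, against 8.28, 8.26 and 8.17 in α-Cat, with a change of 0.31 (SE 0.06, adjusted p = 0.114). These 3 separated the groups and had an adjusted p of 0.0187, 0.0232 and 0.0282 when only single-symbol clusters were tested. NARS1, GARS1, EPRS1 and MARS1 (for asparagine, glycine, glutamate with proline, and methionine) also separated the groups, at changes of 0.17, 0.15, 0.13 and 0.12. VARS1, for valine, was the only synthetase with all Δα-Cat arrays lower: it read 7.80, 7.92 and 7.87 in Δα-Cat, against 8.001, 8.09 and 8.15 in α-Cat (change -0.22, SE 0.06, adjusted p = 0.295). The remaining 8 overlapped, with changes from -0.13 for KARS1 (lysine) to 0.07 for YARS1 (tyrosine). Among those 8, AARS1 (alanine) read 8.81, 9.15 and 9.27 in Δα-Cat and 8.90, 9.06 and 9.15 in α-Cat.

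Isoleucine, valine and leucine are charged by related enzymes, and their genes had different changes: 0.76 for IARS1, -0.22 for VARS1 and 0.02 (SE 0.07) for LARS1. The difference between these genes was not tested. Outside the members, FARSA and FARSB, which encode the subunits of the phenylalanyl enzyme, had changes of -0.17 (SE 0.08) and -0.25 (SE 0.13), and AIMP1, a scaffold of the multisynthetase complex, of 0.03 (SE 0.07). None of these 3 passed (limma, with 0 at an unadjusted p under 0.05).

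Mitochondria use a largely, though not wholly, separate set of synthetases, which serves translation inside the organelle. Of 17 listed, 16 were measured, and limma called 0. At an unadjusted p under 0.05, 0 were higher and 3 lower, against 6.96% and 6.16% of all genes. The change of the mitochondrial genes was positive in 2 of 16, with a median of -0.11, against 13 of 17 and 0.07 for the cytosolic members. Of all genes 49.8% had a positive change. IARS2 read 7.28, 7.32 and 7.23 in Δα-Cat, against 7.46, 7.38 and 7.36 in α-Cat (change -0.12, SE 0.06). CARS2 read 6.95, 6.91 and 6.91 in Δα-Cat, against 7.11, 7.01 and 7.09 in α-Cat (change -0.15, SE 0.05, adjusted p = 0.42), and LARS2 had a change of -0.17 (SE 0.06, adjusted p = 0.437). Every Δα-Cat array was lower in 5 of 16 (31.2%, against 10.0% of all genes), which were IARS2, CARS2, LARS2, NARS2 (change -0.16, SE 0.06) and VARS2 (change -0.10, SE 0.06), and every Δα-Cat array was higher in 0. In 10 of 13 pairs of a cytosolic gene and its mitochondrial counterpart the cytosolic change was the higher, and the 3 exceptions were HARS1, RARS1 and VARS1. The difference between the sets was not tested.

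**Figure D3:**
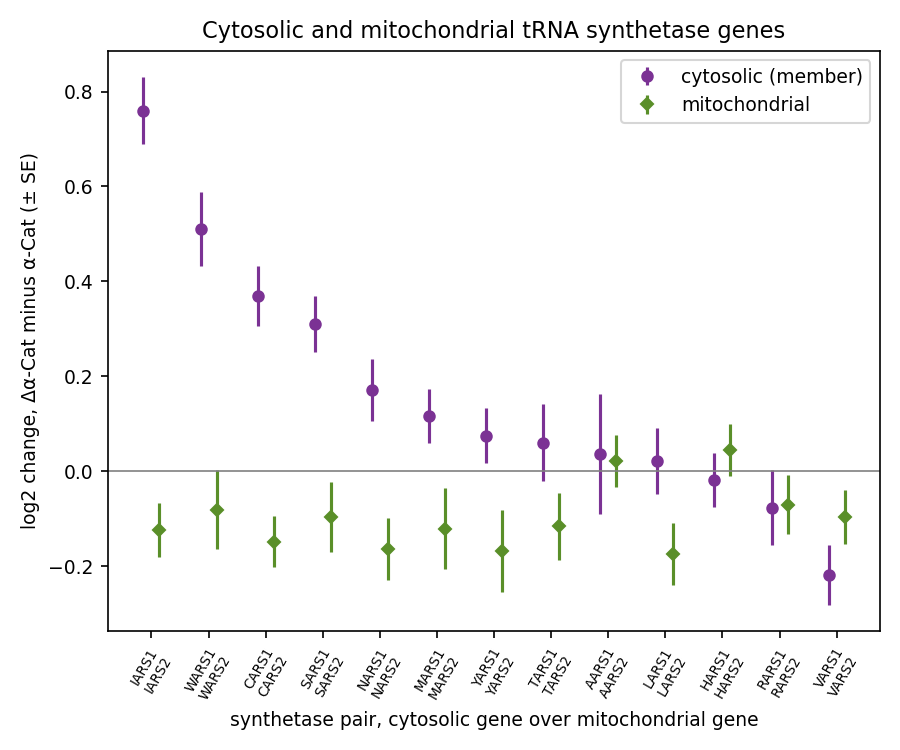
Log2 change, Δα-Cat minus α-Cat, of 13 cytosolic synthetase genes (circles) and their mitochondrial counterparts (diamonds), with bars of ± the SE of the fit, ordered by the cytosolic change. The cytosolic changes run from 0.76 (IARS1) to -0.22 (VARS1), while the mitochondrial ones lie between -0.17 and 0.05.

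Upstream of ATF4, 13 of 13 listed genes were measured, for eIF2α kinases, eIF2α phosphatase subunits, eIF2, its exchange factor and IMPACT. Over all clusters limma called 0. At an unadjusted p under 0.05, 2 were higher, IMPACT among them, and 1 lower, against 6.96% and 6.16% of all genes. EIF2AK4 (GCN2), the kinase that senses uncharged tRNA, read 7.03, 7.09 and 7.03 in Δα-Cat, against 7.43, 7.34 and 7.45 in α-Cat, with a change of -0.36 (SE 0.06, adjusted p = 0.0725). IMPACT, an inhibitor of GCN2, read 6.89, 7.28 and 7.28 in Δα-Cat, against 6.61, 6.61 and 6.58 in α-Cat, with a change of 0.55 (SE 0.11, adjusted p = 0.132). Neither pair of groups overlapped, and with single-symbol clusters alone the adjusted p was 0.0161 for EIF2AK4 and 0.0435 for IMPACT. The kinases EIF2AK3 (PERK), EIF2AK2 (PKR) and EIF2AK1 (HRI) had changes of -0.09 (SE 0.06), -0.13 (SE 0.08) and -0.0029 (SE 0.06). PPP1R15A (GADD34), a phosphatase subunit that ATF4 and CHOP induce, had a change of 0.20 (SE 0.07, adjusted p = 0.394).

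The unfolded protein response shares DDIT3 and PERK with this network but also has ATF6 and XBP1 branches that raise chaperones of the endoplasmic reticulum. Of 20 measured genes of that set 0 were called by limma. At an unadjusted p under 0.05, 3 were higher and 1 lower, against 6.96% and 6.16% of all genes. The median change of the set was 0.01, against 0.13 over the members. HSPA5 (BiP), its main chaperone, read 9.98, 10.17 and 10.01 in Δα-Cat and 9.94, 9.92 and 10.01 in α-Cat (change 0.10, SE 0.07). HERPUD1, a membrane protein of degradation at the endoplasmic reticulum, had the smallest p of the set, with a change of 0.41 (SE 0.08, adjusted p = 0.116), and SEL1L, of the same process, had 0.25 (SE 0.06, adjusted p = 0.164). With single-symbol clusters alone these 2 were called higher, at an adjusted p of 0.0357 for HERPUD1 and 0.0428 for SEL1L. Of the branch regulators, ATF6 separated the groups with a change of 0.25 (SE 0.07, adjusted p = 0.302), and XBP1 overlapped with a change of 0.28 (SE 0.12, adjusted p = 0.509). The difference between the sets was not tested.

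Members with a TGATGNAA match were set beside those without, and the difference was not tested. The 15 measured members with a match had a median change of 0.15, a positive change in 14 and separated groups in 8, all with Δα-Cat higher. The 22 measured members with a window and no match had a median of 0.14, a positive change in 15 and separated groups in 12, of which 11 had Δα-Cat higher. Among all genes 49.8% had a positive change, 11.3% separated the groups with Δα-Cat higher and 10.0% with Δα-Cat lower. PHGDH, PSAT1, DDIT3 and DDIT4 were among those with no match, which says only that these letters are not in these windows. Over all 565 measured genes with a match the median change was 0.0085, 54.7% had a positive change, and 15.8% separated the groups with Δα-Cat higher.

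**Figure D4:**
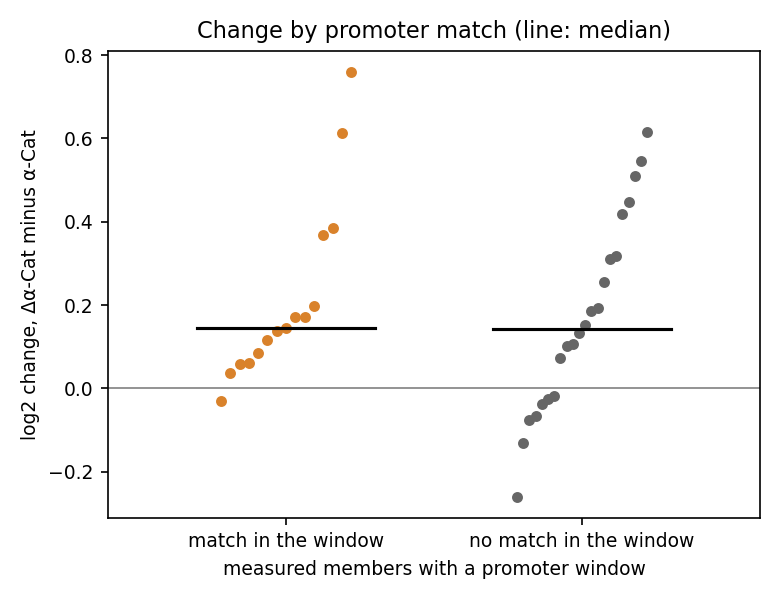
Log2 change, Δα-Cat minus α-Cat, of the measured members with a promoter window, split into the 15 with TGATGNAA on either strand (left) and the 22 without (right). Each point is a gene, and the black line is the median, 0.15 on the left and 0.14 on the right.

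The arrays of a group were not alike in these genes. Δα-Cat replicate 3 was the highest array of its group in 29 of 45 members (64.4%), against 31.2% of all genes, and Δα-Cat replicate 1 the lowest in 28 (62.2%), against 29.6% of all genes. In the α-Cat group, replicate 3 was the highest in 23 of 45 (51.1%), against 30.4% of all genes. Among the 17 synthetases, α-Cat replicate 2 was the lowest of its group in 12 (70.6%), against 31.4% of all genes. Δα-Cat replicate 1 was also the lowest of its group in 12 of these 17, against 29.6% of all genes. Same-numbered differences give the members' median as 0.11, 0.16 and 0.13 for numbers 1, 2 and 3. Of the 22 members whose groups overlapped, 5 kept 1 sign in all 3 same-numbered differences (22.7%, against 22.5% of the overlapping genes): PCK2, SLC7A1, ATF3 and PYCR1 were higher in Δα-Cat each time, and SHMT2 lower. IARS1 differed by 0.58, 0.90 and 0.80 in these pairs, PHGDH by 0.44, 0.39 and 0.52, and DDIT3 by 0.48, 0.44 and 0.93.

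**Figure D5:**
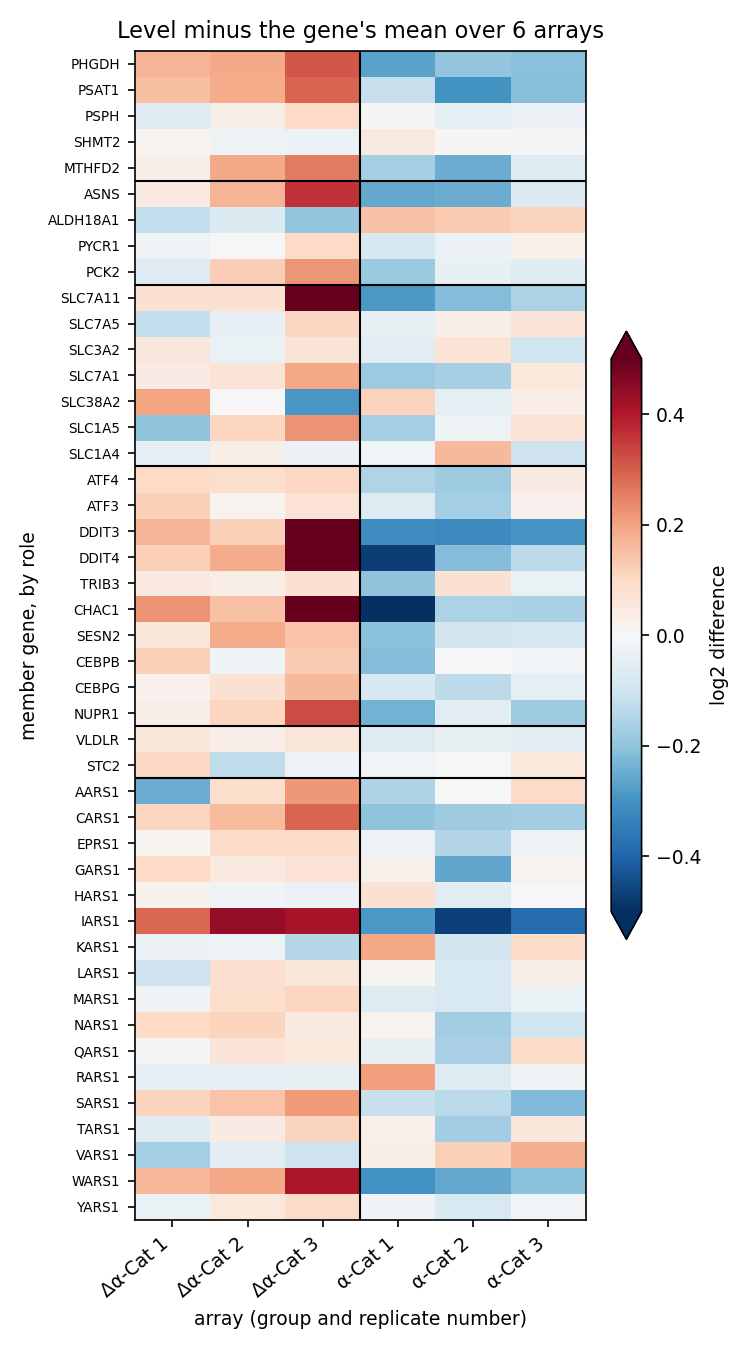
Log2 level of each of the 45 measured members minus its mean over the 6 arrays, with genes in rows grouped by role (horizontal lines) and arrays in columns, Δα-Cat left of α-Cat. Red is above and blue below the gene's mean, and the scale is capped at 0.5 on either side. Δα-Cat replicate 3 is the highest of its group in 29 of 45 rows.

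As a check of the labels, CTNNA1, which encodes αE-catenin, averaged 6.49 in Δα-Cat and 7.73 in α-Cat (change -1.23, SE 0.06, adjusted p = 0.00212). The median level over all clusters lay between 4.02 and 4.07 on the 6 arrays. Of 9 epithelial markers limma called 0 (3 higher and 1 lower at an unadjusted p under 0.05), and their mean level lay between 9.08 and 9.19 in Δα-Cat and between 9.06 and 9.16 in α-Cat, with EPCAM, KRT8 and KRT18 high on every array. Limma called 0 of the 5 leukocyte, 6 fibroblast and 5 endothelial markers measured. At an unadjusted p under 0.05, 1, 0 and 0 were higher and 1, 0 and 0 lower, against the same shares of all genes. Their mean levels lay between 4.18 and 4.45 in Δα-Cat and between 4.23 and 4.30 in α-Cat for leukocyte genes. For fibroblast genes they lay between 4.36 and 4.45 in Δα-Cat and between 4.37 and 4.38 in α-Cat. For endothelial genes they lay between 4.40 and 4.56 in Δα-Cat and between 4.51 and 4.55 in α-Cat. These are means over unlike genes. Both group means of COL1A1, COL1A2, PDGFRB, THY1, CDH5, VWF, CLDN5, CD3E, CD68 and CD14 lay above the olfactory level of 4.58. Those of DCN, LUM, PECAM1, KDR, PTPRC and LYZ lay below it. CLDN5 averaged 6.67 in Δα-Cat and 6.71 in α-Cat, above VIL1 and LGALS4. Among leukocyte markers CD14 differed by -0.64 (SE 0.12, adjusted p = 0.12) and CD68 by 0.66 (SE 0.28), while PTPRC, the defining one, averaged 2.29 in Δα-Cat and 2.30 in α-Cat; the part of these markers in the results was not tested.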

How the data were processed

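Total RNA of 6 arrays was measured on an Affymetrix platform. The deposited score is on a log2 scale in the rows used: the authors made it with Affymetrix Expression Console and RMA, per the submitters' processing notes, and versions and settings are not given in the sources used here. RMA fits all arrays together and compresses changes of dim genes. Of 70513 rows, 4987 had lost decimal points (values up to 999) and were left out; 65526 were tested, with values from 1.26 to 14.24. The second deposited table was not used: its 6 columns match no label. Clusters were named through the platform annotation, updated by gene identifier to RefSeq symbols (IARS to IARS1): 22686 had 1 symbol, 1385 several and 41455 none. Where a gene had several single-symbol clusters, the one of highest mean stood for it.

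Changes were fitted with limma 3.58.1 (R 4.3.3; lmFit, eBayes, all 6 arrays, no covariate) and adjusted by Benjamini-Hochberg over all clusters; the script was tested on simulated data. All p-values of genes are limma's, and the number of arrays limits the precision. Residuals of same-numbered arrays correlated at 0.219, 0.214 and 0.128. All other pairs lay below 0, which centring the residuals within each group forces on average when these are positive. The numbers were used as pairs only in the block and in the same-numbered differences, and no label explains the numbers. The planned fit ignores them, and the block was an alternative to it. Python 3.11.15, pandas 2.3.3, numpy 2.4.6 and matplotlib 3.10.9 made the tables and plots.

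The members, lists and tests were chosen with earlier results of these data known. Values on every array are given for called members, for ATF4, ASNS, DDIT3 and TRIB3, and in each role for the 3 members with the smallest p (4 among regulators and synthetases) and the most negative one; PSPH and AARS1, and IARS2 and HSPA5 outside the members, were added after their values were seen, as were further genes named from the other lists beyond the called or the 2 of smallest p. Alternatives were another normalization (cyclic loess, median centring), trended eBayes, the block, other sets of clusters and leaving out each array. Scanner files and scan dates were not used here, so background correction and slides were not tested.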

Additional observations from a re-analysis of the deposited data

How the results depend on the processing

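All alternatives were planned, but with earlier results of these data known. Members called higher were 2 in the fit as planned, 1 with cyclic loess, 1 with median centring and 0 with the replicate block. The count was 6 each with single-symbol clusters only and with clusters above the olfactory level, and between 0 and 1 without 1 array. Both sets of clusters were fitted anew, so the fit and the adjustment each differ from the planned one. What raised the count was not tested. The share of all clusters called is given above for the planned fit, the block and both sets of clusters. For the other fits that share was not worked out, so their counts of members cannot be set against a general drop in calls. The count called lower, 0, was 1 with single-symbol clusters only and 0 in the other fits, those without 1 array included. PHGDH was the call lost under both other normalizations, at an adjusted p of 0.0503 (cyclic loess) and 0.0548 (median centring), and IARS1 was kept in both; both kept their call with trended, robust eBayes and with the mean of a gene's clusters. The replicate block changed no other call among the members. The members' median change was 0.13, and lay between 0.11 and 0.15 without 1 array. The direction of change was the same in all 13 alternatives for 34 of 45 members, and for VLDLR in the 12 that tested it, since its cluster lies under the olfactory level. The other 10, with changes of at most 0.086 in size, changed sign only when 1 array was left out, with a lowest and highest change of -0.10 and 0.014 for SLC7A5, -0.18 and 0.063 for SLC38A2, -0.0058 and 0.21 for SLC1A5, -0.090 and 0.042 for SLC1A4, -0.085 and 0.031 for STC2, -0.062 and 0.17 for AARS1, -0.049 and 0.015 for HARS1, -0.013 and 0.080 for LARS1, -0.13 and 0.0074 for RARS1 and -0.011 and 0.11 for TARS1. The cause was not tested. No detection call is given with the deposited values, so DDIT3, VLDLR and STC2 are limited by their level near background.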
